A study of Mus musculus with 6 samples.

Results

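The 45 genes described here encode the integrins of the osteoclast surface and the proteins that build podosomes and the sealing zone beneath them. They were chosen by name, from a fixed list of symbols looked up in the deposited count table, and all 45 of the 45 names were found among its 23204 genes. All 45 also passed the filter on low counts, so none was left out of the test. RNA was measured by sequencing in 6 libraries of mouse osteoclasts, 3 of them wild type and 3 with the genotype label Tet2Rank–/–; Tet3aRank+/–, which the column names give as Tet2KOTet3Het. All were C57BL/6 and were grown from bone marrow, whose adherent cells were collected after 2 days in the growth factor M-CSF and then kept in M-CSF with RANKL, which turns macrophage precursors into osteoclasts. Neither Rank nor the a in Tet3a is explained by the labels, which also leave out the promoter of any Cre, the exons deleted and the age of the mice. Each genotype had 1 female and 2 male samples by its labels, but the columns do not say which. The female and male samples of a genotype must be from different animals, but the labels do not say whether the 2 male samples were. Each p-value therefore measures only the spread among the 6 libraries, which may be partly technical and includes any difference between the sexes.

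Osteoclasts resorb bone inside a tight ring of adhesion. The ring is built from podosomes, small columns of branched actin surrounded by integrins and adaptor proteins, which fuse into a belt and, on bone, into the sealing zone. The integrin αvβ3, made from *Itgav* and *Itgb3*, is the characteristic integrin of the mature cell. It signals through the kinases SRC, PYK2 and SYK to exchange factors that load the small GTPase RAC. Macrophage precursors rely more on β2 integrins and on αvβ5.

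Library numbers are those at the start of the column names. Numbers 1, 4 and 6 are wild type and 2, 3 and 5 labelled mutant, and values per library are given in that order, wild type first. Total counts lay between 8794973 and 14267135. The columns of libraries 5 and 6 carry a second number, which the other 4 lack. This column-name split crosses the genotypes, and a fit with it as a term is given beside the fit with genotype alone. Levels are given in CPM, counts scaled by TMM to a common library size. *Tet2* itself stood at 71.7, 80.9 and 79.3 CPM in wild type and 58.2, 45.5 and 52.2 CPM in the labelled mutant libraries, without overlap (adjusted p = 0.0924, edgeR), and *Tet3* at 145, 121 and 127 against 163, 141 and 156 CPM. The summed CPM of 12 osteoclast markers was 20180, 16690 and 42200 in the wild-type and 3987, 9841 and 13790 in the labelled mutant libraries. Each of the 12 was detected and had a fold change below 0. With the split as a term, 8 fell at an adjusted p under 0.05 in edgeR, or 66.7% against 5.60% of all genes. With genotype alone 0 passed in edgeR. DESeq2 called 3 lower, against 2.36% of the 23196 genes it tested without a low-count filter. The sum of 15 macrophage markers was 21350, 16230 and 12830 against 30160, 23840 and 24430 CPM. A single marker held up to 287183 counts in a library, so the sum weights the 15 unequally. The stromal gene *Col1a1* was present at 414, 378 and 1236 against 277, 1139 and 1610 CPM.

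Both genes of the αvβ3 receptor, *Itgb3* and *Itgav*, fell in the labelled mutant libraries in the fit with the column-name split as a term. So did *Src*, *Cblb* and *Pxn*, which act at the receptor's tail, the GTPase gene *Rac2* and the actin-binding *Synpo2*, while *Itgb5* and *Afap1l1* rose. These 7 and 2 are 15.6% and 4.44% of the 45, against 5.60% and 3.08% of all genes (8.68% in either direction). With genotype alone, 0 of the 45 passed an adjusted p of 0.05 in edgeR, where 0.0712% of the 14040 genes tested were called, 0.0499% higher and 0.0214% lower in the labelled mutant libraries. At an unadjusted p under 0.05, 9 were lower and 7 higher, against 12.4% and 7.19% of all genes. Fold changes below are from the fit with genotype alone. DESeq2 without the split called 4 lower (*Src*, *Pxn*, *Rac2* and *Synpo2*) and 4 higher (*Itgb5*, *Afap1l1*, *Cbl* and *Vav1*), against 2.36% and 2.11% of the 23196 genes it tested. No low-count filter was applied in DESeq2, so these shares include low-count genes that the 14040 leave out. The libraries of the genotypes did not overlap for 10 genes that were lower and 8 that were higher, where 16.9% and 9.91% of all genes did so, 26.8% together. Of the 45 fold changes 28 were below 0 and 17 above, against 53.2% and 46.8% of all genes. The median log2 fold change of the 45 was -0.12, against -0.03 over all genes, and the sign of the former changed without library 2 (0.03) and without library 6 (0.01). Its quartiles were -0.59 and 0.18, wider than the -0.28 and 0.25 of all genes. Calls with the split as a term depended on the libraries used. Within libraries 1 to 4 alone there were 0 in edgeR, where 1 of 14253 genes was called. At an unadjusted p under 0.05, 3 were higher and 10 lower there, without a share of all genes to set beside them. With 1 of libraries 1 to 4 left out, there were 2 lower and 1 higher without library 1 or without library 4. Over all genes these fits called 221 lower and 343 higher of 14659 without library 1, and 96 and 74 of 14313 without library 4. Without library 2 the members called were 3 and 1, beside 231 and 187 of 14266 genes. Without library 3 they were 11 and 2, beside 1148 and 697 of 14587 genes. *Synpo2*, *Itgb5* and *Cblb* passed in each of those last 4 fits. *Itgb3*, *Itgav*, *Pxn*, *Rac2* and *Afap1l1* passed without library 3 and not without library 1, 2 or 4, and *Src* not without library 1 or 4.

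**Figure D1:**
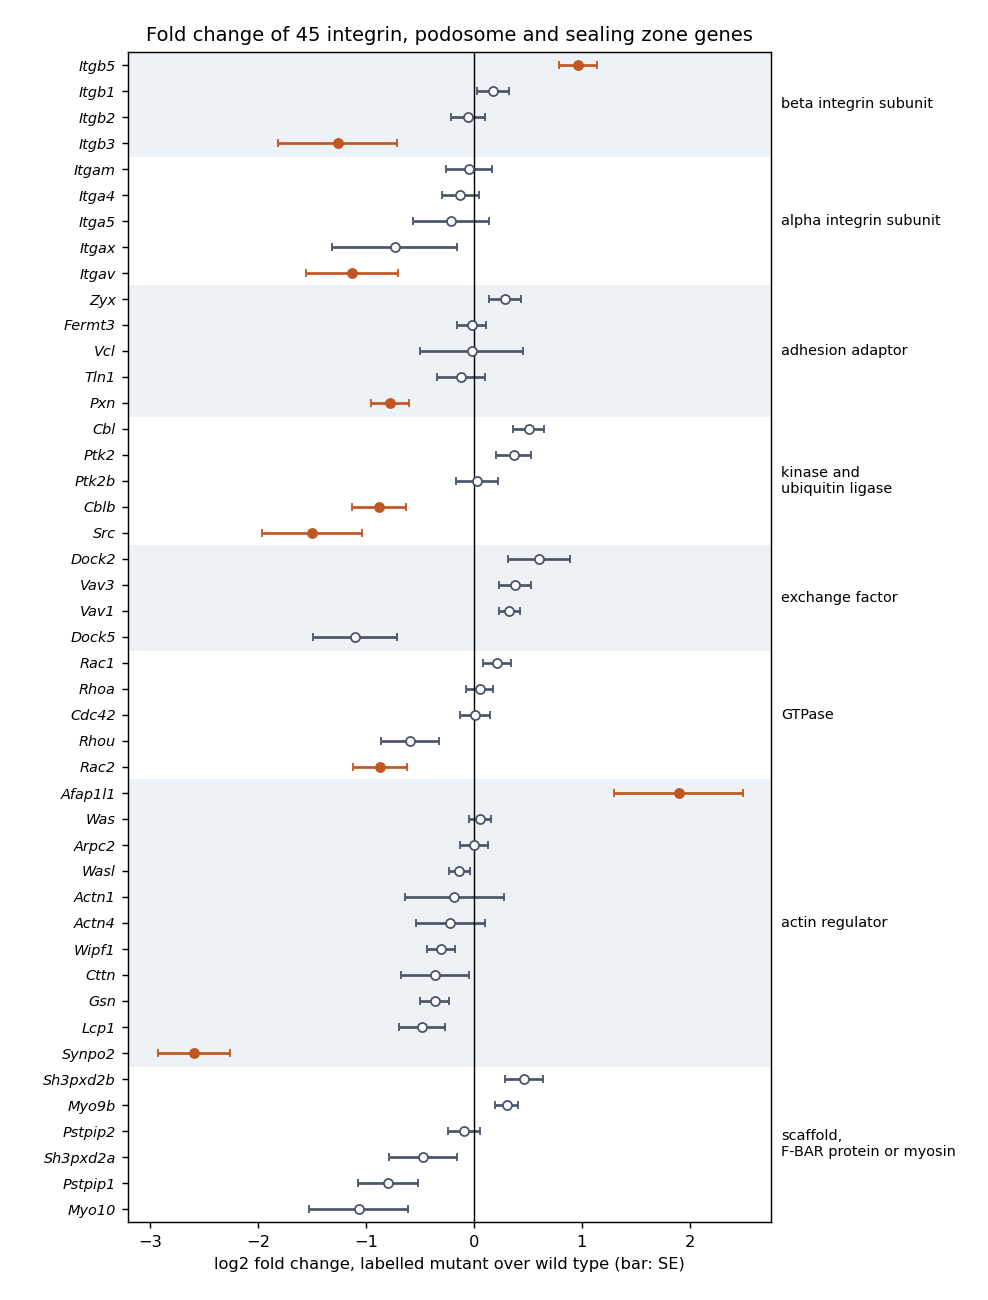
Log2 fold change of each of the 45 genes (horizontal axis, labelled mutant over wild type; bars are the SE from edgeR with genotype alone, 3 libraries per genotype), grouped by role. Filled orange points passed an adjusted p of 0.05 with the column-name split as a term: 7 lie below 0, from -2.59 for *Synpo2* to -0.78 for *Pxn*, and 2 above, *Itgb5* and *Afap1l1*.

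The β integrin subunits *Itgb3* and *Itgb5* had opposite signs. *Itgb3* (ENSMUSG00000020689, chromosome 11, 104608000 to 104670476, mm10) stood at 216, 185 and 495 CPM in wild type and 56.4, 119 and 198 CPM in the labelled mutant libraries, or 41.7% of wild type on average. Library 5 of the labelled mutant group lay above wild-type library 4, so the groups overlapped. Its fold change on the log2 scale was -1.26 (SE 0.552), and the edgeR adjusted p was 0.279 with genotype alone and 0.0384 with the split as a term. The fold change was -0.88 without library 2 and -0.66 without library 6 (edgeR, genotype alone), and -1.28 within libraries 1 to 4 and -1.32 between libraries 5 and 6. *Itgb5* (ENSMUSG00000022817, chromosome 16, 33829665 to 33949338), the β partner of αv in precursors, went the other way, at 127, 115 and 142 CPM in wild type and 245, 203 and 303 CPM in the labelled mutant libraries. Every labelled mutant library was above every wild-type one, by 1.95-fold on average. Its fold change on the log2 scale was 0.96 (SE 0.176), and the edgeR adjusted p was 0.0777 with genotype alone and 0.0159 with the split as a term. *Itgb1*, the β subunit of receptors for collagen and fibronectin, stood at 502, 471 and 568 against 510.3, 578 and 652 CPM. *Itgb2*, the leukocyte β subunit, stood at 501, 429 and 514 against 424, 422 and 545 CPM. For both the genotypes overlapped, with log2 fold changes of 0.18 (SE 0.146) and -0.05 (SE 0.154), neither past the threshold.

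Scaled by exon length, *Itgb5* and *Itgb3* overlapped in wild type and were separated in the labelled mutant libraries. In wild type, *Itgb2* (158 ± 14.9 CPM per kb of exon, SD, n = 3) and *Itgb1* (126 ± 12.2) were highest and did not overlap each other, and *Itgb3* (50.6 ± 28.9) and *Itgb5* (36.1 ± 3.83) overlapped. In the labelled mutant libraries *Itgb5* reached 70.4 ± 14.2 and *Itgb3* stood at 21.1 ± 11.97 CPM per kb, without overlap. Within a library, the length-scaled ratio of *Itgb5* to *Itgb3* was 0.979, 1.03 and 0.477 in wild type and 7.21, 2.82 and 2.55 in the labelled mutant libraries. This pair, like the 3 other pairs of relatives below, was chosen after the values were seen, so the ratios carry no test.

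Among the α subunits, *Itgav* (ENSMUSG00000027087, chromosome 2, 83724397 to 83806916), the partner of both β3 and β5, stood at 483, 388 and 797 CPM in wild type and 133, 262 and 368 CPM in the labelled mutant libraries. The highest labelled mutant value, in library 5, lay just under the lowest wild-type value, in library 4. The difference for *Itgav* was -1.13 on the log2 scale (SE 0.426; edgeR adjusted p = 0.215, and 0.0418 with the split as a term). Without library 2 or library 6 the fold change was -0.78 or -0.75 (edgeR, genotype alone). The myeloid subunits were not separated. *Itgam*, which pairs with β2 to form the receptor CD11b/CD18, stood at 190.1, 145 and 115 against 170, 125 and 142 CPM, -0.04 (SE 0.213) on the log2 scale. *Itgax*, which encodes CD11c, stood at 10.03, 9.21 and 23.2 against 3.64, 7.74 and 14.1 CPM. Its values spread widely within each genotype, with library 2 lowest and library 6 highest, so that -0.73 on the log2 scale came with an SE of 0.577 (adjusted p = 0.575, edgeR). *Itga4* and *Itga5*, subunits of fibronectin receptors, had log2 fold changes of -0.13 (SE 0.172) and -0.21 (SE 0.351) with overlapping groups. Per kb of exon, *Itgav* was the highest of the 5 α subunits in wild type, at 51.7 ± 19.9 CPM per kb, though *Itga5* (36.9 ± 11.8) and *Itgam* (29.9 ± 7.54) overlapped it. *Itgax* was far the lowest, at 2.94 ± 1.63. In the labelled mutant libraries *Itgav* (23.7 ± 10.9) stood among *Itga5* (31.8 ± 12.1), *Itgam* (29.00 ± 4.53) and *Itga4* (19.5 ± 2.08).

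**Figure D2:**
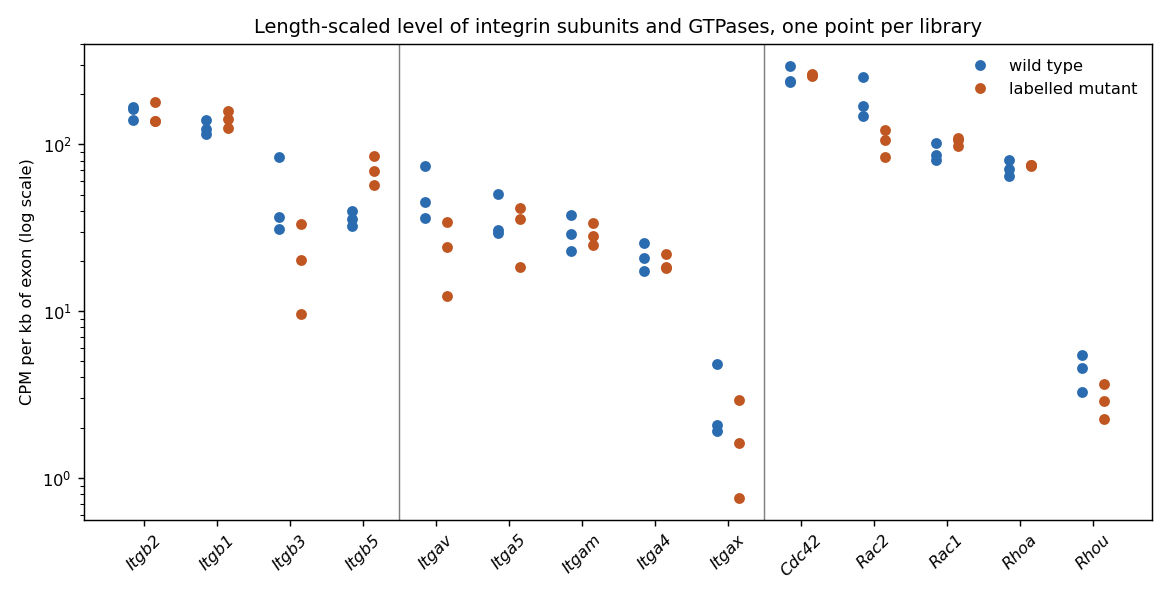
Length-scaled level (CPM per kb of exon, log axis) of the β subunits, the α subunits and the 5 GTPase genes, left to right, with a point for each of the 3 wild-type (blue) and 3 labelled mutant (orange) libraries. *Itgb5* lies above *Itgb3* in every labelled mutant library, and the genotypes overlap for *Cdc42* and *Rhoa*.

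**Figure D3:**
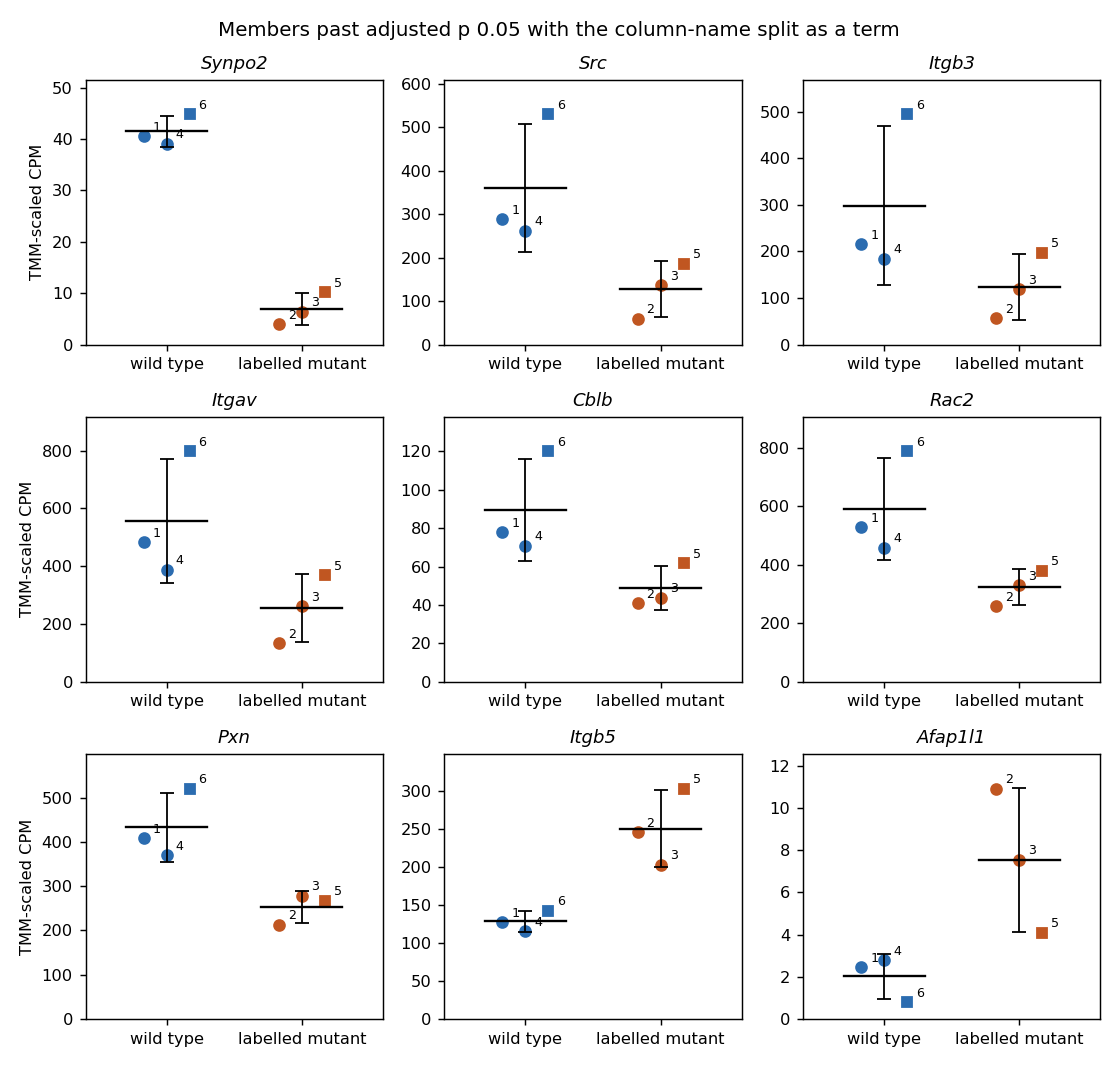
TMM-scaled CPM (vertical axes from 0) of the 9 genes past an adjusted p of 0.05 with the column-name split as a term. Points are libraries, numbered, with squares for libraries 5 and 6; lines are means and bars the SD of 3 libraries. The genotypes do not overlap for 8 of the 9, and *Itgb3* is the exception.

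TET enzymes oxidise methylated cytosines, which in mammals lie mostly in CG dinucleotides. The bases just upstream of the start of transcription are therefore shown for 2 genes that fell, 1 that rose and 1 whose fold change lay near 0 on the log2 scale. They are the 250 bases before the RefSeq start of *Itgav* (chr2:83724147-83724396, plus strand), *Synpo2* (chr3:123236150-123236399, minus strand), *Itgb5* (chr16:33829415-33829664, plus strand) and *Cdc42* (chr4:137357760-137358009, minus strand) on GRCm38.p6, 5′ to 3′, with each CG in capitals.
Itgav: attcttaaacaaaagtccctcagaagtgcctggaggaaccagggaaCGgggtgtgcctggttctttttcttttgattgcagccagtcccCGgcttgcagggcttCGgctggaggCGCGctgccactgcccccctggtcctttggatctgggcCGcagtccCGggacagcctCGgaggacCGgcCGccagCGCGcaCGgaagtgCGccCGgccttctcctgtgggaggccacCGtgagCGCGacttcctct
Synpo2: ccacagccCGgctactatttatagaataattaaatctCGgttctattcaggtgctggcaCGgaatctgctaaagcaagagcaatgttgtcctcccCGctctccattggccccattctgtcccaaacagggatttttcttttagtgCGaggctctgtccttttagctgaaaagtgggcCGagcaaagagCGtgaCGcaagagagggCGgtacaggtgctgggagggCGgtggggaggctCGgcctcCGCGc
Itgb5: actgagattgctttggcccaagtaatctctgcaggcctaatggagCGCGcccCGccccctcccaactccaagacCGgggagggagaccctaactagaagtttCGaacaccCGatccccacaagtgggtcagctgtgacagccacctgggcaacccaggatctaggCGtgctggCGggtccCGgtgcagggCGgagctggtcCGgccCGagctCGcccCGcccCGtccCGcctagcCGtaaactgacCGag
Cdc42: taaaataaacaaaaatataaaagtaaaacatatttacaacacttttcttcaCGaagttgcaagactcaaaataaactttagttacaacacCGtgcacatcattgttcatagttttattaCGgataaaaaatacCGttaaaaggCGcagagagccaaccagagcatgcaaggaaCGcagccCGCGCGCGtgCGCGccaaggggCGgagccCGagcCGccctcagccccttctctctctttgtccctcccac
The windows held 18, 13, 18 and 15 CG dinucleotides in that order. The median over 32851 promoter windows of this length was 6, with quartiles of 2 and 16. RefSeq windows were matched for 33 of the 45 genes (42 windows in all), with 1 to 40 CG dinucleotides and a median of 15. The core of NFAT sites, GGAAA on either strand, was in 21 of these 42 windows and 55.6% of all windows, and in 0 of the 4 printed. The AP-1 site TGANTCA was in 9.52% against 6.75%, and GAGGAA, the core of sites for the myeloid factor PU.1, which can overlap GGAAA by its last 4 bases, in 28.6% against 23.3%. GAGGAA occurred 2 times, counting both strands, in the *Itgav* window. DNA methylation was not measured in these libraries.

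Of the adaptor genes that couple integrins to actin, *Pxn* fell with the split as a term and the other 4 did not pass. *Pxn*, which encodes the scaffold paxillin, stood at 408, 370.4 and 521 CPM in wild type and 213, 279 and 267 CPM in the labelled mutant libraries. All 3 labelled mutant libraries were below all 3 of wild type. The difference for *Pxn* was -0.78 on the log2 scale (SE 0.178; edgeR adjusted p = 0.101, and 0.0313 with the split as a term). *Vcl*, which encodes vinculin, stood at 139.5, 119.9 and 250.4 against 72.5, 185 and 246 CPM, -0.02 (SE 0.480) on the log2 scale. Its libraries differed more within a genotype than between genotypes, with library 2 lowest and libraries 5 and 6 highest. The talin gene *Tln1*, the kindlin-3 gene *Fermt3* and the zyxin gene *Zyx* had log2 fold changes of -0.12 (SE 0.223), -0.02 (SE 0.133) and 0.28 (SE 0.148) with overlapping groups. *Vcl* shares bases with *Ap3m1*, *Tln1* with *Creb3* and *Rac1* with *Daglb* on the opposite strand. How the counting treated strand is not stated in the labels, so reads from such a pair cannot be told apart with certainty.

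Of the 5 kinase and ligase genes, *Src* was the lowest relative to wild type. SRC is the tyrosine kinase without which osteoclasts form but do not make a working sealing zone. *Src* (ENSMUSG00000027646, chromosome 2, 157418444 to 157471862) stood at 289, 262 and 530.1 CPM in wild type and 59.8, 136 and 187 CPM in the labelled mutant libraries, or 35.4% of wild type on average, and the genotypes did not overlap. Its fold change on the log2 scale was -1.498 (SE 0.466), and the edgeR adjusted p was 0.157 with genotype alone and 0.0288 with the split as a term. Without library 1 or library 4 the fit with the split gave adjusted p-values of 0.0672 and 0.0725 (edgeR). The other 2 kinase genes did not pass. *Ptk2b*, which encodes PYK2, stood at 134, 122 and 162 against 152, 108 and 166 CPM, a log2 fold change of 0.03 (SE 0.194). *Ptk2*, which encodes the focal adhesion kinase FAK, stood at 24.9, 25.2 and 18.04 against 28.01, 31.7 and 28.3 CPM, every labelled mutant library above every wild-type one, by 0.37 on the log2 scale (SE 0.163; adjusted p = 0.282, edgeR). The 2 CBL ubiquitin ligases, which SRC signalling engages, had opposite signs. *Cblb* stood at 77.9, 70.9 and 119.9 CPM in wild type and 40.8, 43.8 and 61.7 CPM in the labelled mutant libraries. The difference for *Cblb* was -0.88 on the log2 scale (SE 0.253; edgeR adjusted p = 0.14, and 0.0135 with the split as a term). *Cbl* stood at 223, 177 and 185 against 251, 269 and 312 CPM. The difference for *Cbl* was 0.51 on the log2 scale (SE 0.143; edgeR adjusted p = 0.136, and 0.0772 with the split as a term). DESeq2 gave *Cbl* an adjusted p of 0.0231. Neither gene's libraries overlapped between genotypes. The length-scaled ratio of *Cblb* to *Cbl* was 0.412, 0.472 and 0.764 in wild type and 0.191, 0.192 and 0.233 in the labelled mutant libraries.

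The exchange factor genes *Dock5* and *Dock2* had opposite signs, and 0 of the 4 passed in edgeR. At an unadjusted p under 0.05 in edgeR, 2 were higher and 1 lower, against 7.19% and 12.4% of all genes. DESeq2 called 1 higher, against 2.11% of the 23196 genes it tested. *Dock5*, an activator of RAC in osteoclasts, stood at 260, 196 and 399 CPM in wild type and 73.5, 148 and 177 CPM in the labelled mutant libraries, without overlap. The difference for *Dock5* was -1.103 on the log2 scale (SE 0.390; edgeR adjusted p = 0.191, and 0.0502 with the split as a term). *Dock2*, the relative best known in leukocytes, stood at 229, 173 and 103 against 290.5, 228 and 249 CPM, 0.605 on the log2 scale (SE 0.286; adjusted p = 0.314, edgeR). Wild-type library 1 lay just above labelled mutant library 3 for this gene. The ratio of *Dock5* to *Dock2*, scaled by length, was 1.06, 1.07 and 3.62 in wild type and 0.237, 0.606 and 0.667 in the labelled mutant libraries. *Vav3*, which encodes an exchange factor that acts below αvβ3 in osteoclasts, stood at 36.3, 28.9 and 40.4 against 44.2, 43.3 and 50.3 CPM. *Vav1*, its blood-cell relative, stood at 118, 108 and 108 against 146, 132 and 140.4 CPM. For both, every labelled mutant library was higher, by 0.39 (SE 0.149) and 0.33 (SE 0.0980) on the log2 scale. Neither passed in edgeR (0.224 and 0.147 adjusted, genotype alone; 0.101 and 0.0983 with the split), while DESeq2 gave *Vav1* an adjusted p of 0.0298.

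Of the GTPases themselves, *Rac2* fell with the split as a term and *Rac1*, *Cdc42*, *Rhoa* and *Rhou* did not pass. *Rac2* (ENSMUSG00000033220, chromosome 15, 78559167 to 78572783), the RAC of blood cells, stood at 528, 458 and 788 CPM in wild type and 259, 331 and 380 CPM in the labelled mutant libraries. The groups did not overlap. The difference for *Rac2* was -0.87 on the log2 scale (SE 0.249; edgeR adjusted p = 0.138, and 0.0254 with the split as a term). *Rac1*, the ubiquitous RAC, stood at 459, 364 and 389 against 475, 440.3 and 489 CPM, a log2 fold change of 0.21 (SE 0.132). Per kb of exon *Rac2* stood at 191 ± 55.9 and *Rac1* at 89.8 ± 10.9 CPM per kb in wild type, and at 104 ± 19.6 and 104 ± 5.59 in the labelled mutant libraries. The ratio of *Rac2* to *Rac1* was 1.67, 1.83 and 2.94 in wild type and 0.790, 1.09 and 1.13 in the labelled mutant libraries. *Cdc42*, a GTPase of actin polarity, stood at 881, 707 and 712 against 780.1, 760.2 and 770.5 CPM. *Rhoa*, which drives contractility, stood at 605, 487 and 535 against 558, 566 and 566 CPM. Both fold changes lay near 0, at 0.01 (SE 0.139) and 0.06 (SE 0.127) on the log2 scale. *Rhou*, an atypical relative of CDC42, was low throughout, at 12.5, 20.7 and 17.4 against 13.9, 8.56 and 11.02 CPM, -0.59 on the log2 scale (SE 0.268; adjusted p = 0.294, edgeR). Whether reads from processed copies of *Rac1*, *Cdc42*, *Rhoa* or *Arpc2* were counted to them was not tested.

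Among the genes of the actin core, *Synpo2* fell and *Afap1l1* rose with the split as a term, and the other 9 did not pass. *Synpo2* (ENSMUSG00000050315, chromosome 3, 123076519 to 123236149), which encodes the actin-binding protein myopodin, stood at 40.6, 39.1 and 44.8 CPM in wild type and 3.99, 6.42 and 10.2 CPM in the labelled mutant libraries, or 16.6% of wild type on average. The wild-type libraries lay close together and far above all 3 labelled mutant ones. Its fold change on the log2 scale was -2.59 (SE 0.333), and the edgeR adjusted p was 0.0544 with genotype alone and 0.0109 with the split as a term. Its raw counts were 348, 505 and 559 in wild type and 57, 63 and 137 in the labelled mutant libraries. Without a filter on low counts the adjusted p was 0.0337 with genotype alone (edgeR), and leaving out each library in turn put it between 0.110 and 0.232, with log2 fold changes between -3.01 and -2.28. *Was*, which encodes the blood-cell activator WASP, stood at 108, 92.5 and 99.01 against 108, 99.3 and 105 CPM, 0.06 (SE 0.101) on the log2 scale. *Wasl*, which encodes its widely expressed relative N-WASP, stood at 35.4, 40.2 and 37.9 against 33.3, 35.4 and 34.9 CPM, -0.13 (SE 0.0978) on the log2 scale. *Arpc2*, a subunit of the Arp2/3 nucleator, had a log2 fold change of 0.001 (SE 0.131). These 3 genes overlapped between the genotypes. *Gsn*, which encodes the severing protein gelsolin, stood at 569, 499 and 605 against 401, 420.1 and 479 CPM, all 3 labelled mutant libraries below wild type, -0.36 on the log2 scale (SE 0.136; adjusted p = 0.211 and, with the split, 0.104, edgeR). *Wipf1*, the partner of WASP, was likewise lower without overlap, at -0.303 (SE 0.127, edgeR adjusted p = 0.258). The plastin gene *Lcp1* and the cortactin gene *Cttn* had log2 fold changes of -0.48 (SE 0.210) and -0.36 (SE 0.314) with overlap.

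*Afap1l1*, which encodes an adaptor of actin and SRC found in podosomes, was the member with the largest rise, from a low level. It stood at 2.45, 2.79 and 0.802 CPM in wild type and 10.9, 7.54 and 4.09 CPM in the labelled mutant libraries. All 3 labelled mutant libraries were above wild type, and library 6 was lowest. The raw counts were 21, 36 and 10 against 156, 74 and 55. The difference for *Afap1l1* was 1.899 on the log2 scale (SE 0.596; edgeR adjusted p = 0.157, and 0.0232 with the split as a term). An opposite-strand neighbour that shares bases with it, *1500015A07Rik*, had 24, 53 and 40 counts in wild type and 46, 44 and 35 in the labelled mutant libraries, with overlap. The α-actinin gene *Actn1* stood at 280.3, 278 and 555 against 159.7, 334 and 487 CPM, -0.18 (SE 0.457) on the log2 scale. Its relative *Actn4* stood at 371, 314 and 544 against 232, 346 and 480 CPM, -0.22 (SE 0.317) on the log2 scale. Both spread widely within each genotype.

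Of the 6 scaffolds and motors, 0 passed in edgeR with or without the split or in DESeq2. At an unadjusted p under 0.05 in edgeR, 2 were higher and 1 lower, against 7.19% and 12.4% of all genes. *Pstpip1* and *Pstpip2* encode F-BAR proteins that bend membranes at podosomes. *Pstpip1* was lower without overlap, at 248, 231 and 416 against 131, 190.3 and 196 CPM, -0.79 on the log2 scale (SE 0.276; adjusted p = 0.0526 with the split, edgeR). *Pstpip2*, loss of which in mice causes inflammatory bone disease, stood at 45.8, 32.99 and 44.01 against 39.9, 36.1 and 39.5 CPM, -0.09 (SE 0.147) on the log2 scale with overlap. *Myo10*, which encodes an unconventional myosin of filopodia and the sealing zone, stood at 224, 168 and 372 against 60.1, 122 and 183 CPM, a log2 fold change of -1.07 (SE 0.459) with adjusted p-values of 0.273 and, with the split, 0.0511 (edgeR). Its library 5 lay above wild-type library 4. *Myo9b*, an unconventional myosin, was higher without overlap, at 274, 238 and 266 against 317, 316 and 329.7 CPM, 0.31 (SE 0.106) on the log2 scale (adjusted p = 0.185, edgeR). The podosome scaffolds TKS5 and TKS4, which recruit proteases, had opposite signs. *Sh3pxd2a* (TKS5) had a log2 fold change of -0.47 (SE 0.313) with overlap, and *Sh3pxd2b* (TKS4) one of 0.47 (SE 0.177) without (edgeR adjusted p = 0.49 and 0.216).

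Many members also differed between libraries of 1 genotype in a shared order. Library 2 was the lowest and library 6 the highest of all 6 for 20 of the 45 genes, or 44.4%, against 15.6% of all genes tested. The osteoclast marker sum ranked the wild-type libraries 4, 1, 6 and the labelled mutant libraries 2, 3, 5, from low to high. These orders are not particular to osteoclast markers. The summed neutrophil markers and the summed megakaryocyte and platelet markers ranked the libraries of each genotype the same way. So did the first principal component of all genes tested, which held 68.1% of the variance. Of the 45 genes, 19 (42.2%) followed both orders, against 11.7% of all genes, and among them were *Itgb3*, *Itgav*, *Src*, *Rac2*, *Cblb*, *Dock5*, *Myo10* and *Synpo2*. *Itgb1*, whose fold change was above 0, was also among them, and *Pxn*, which fell with the split as a term, was not. For 8 genes, *Itgav*, *Src*, *Gsn*, *Dock5*, *Rac2*, *Pstpip1*, *Cblb* and *Synpo2*, the order over all 6 libraries was that of the marker sum (4.59% of all genes). In bulk RNA, fewer osteoclasts and less of a transcript per osteoclast cannot be told apart. The part of the marker sum in the fold changes was not tested.

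Labelled mutant library 5 and wild-type library 4 had the closest marker sums across the genotypes, at 13790 and 16690 CPM. In these libraries *Itgb3* stood at 198 and 185 CPM, *Itgav* at 368 and 388 CPM and *Cblb* at 61.7 and 70.9 CPM. *Rac2* stood at 380 and 458 CPM, *Src* at 187 and 262 CPM and *Pxn* at 267 and 370.4 CPM. *Afap1l1* stood at 4.09 and 2.79 CPM, *Itgb5* at 303 and 115 CPM and *Synpo2* at 10.2 and 39.1 CPM. The 9 genes called with the split thus ran from near-equal values for *Itgb3* and *Itgav*, through intermediate ones, to the widest gap for *Synpo2*. They are single libraries and lie on different sides of the column-name split.

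**Figure D4:**
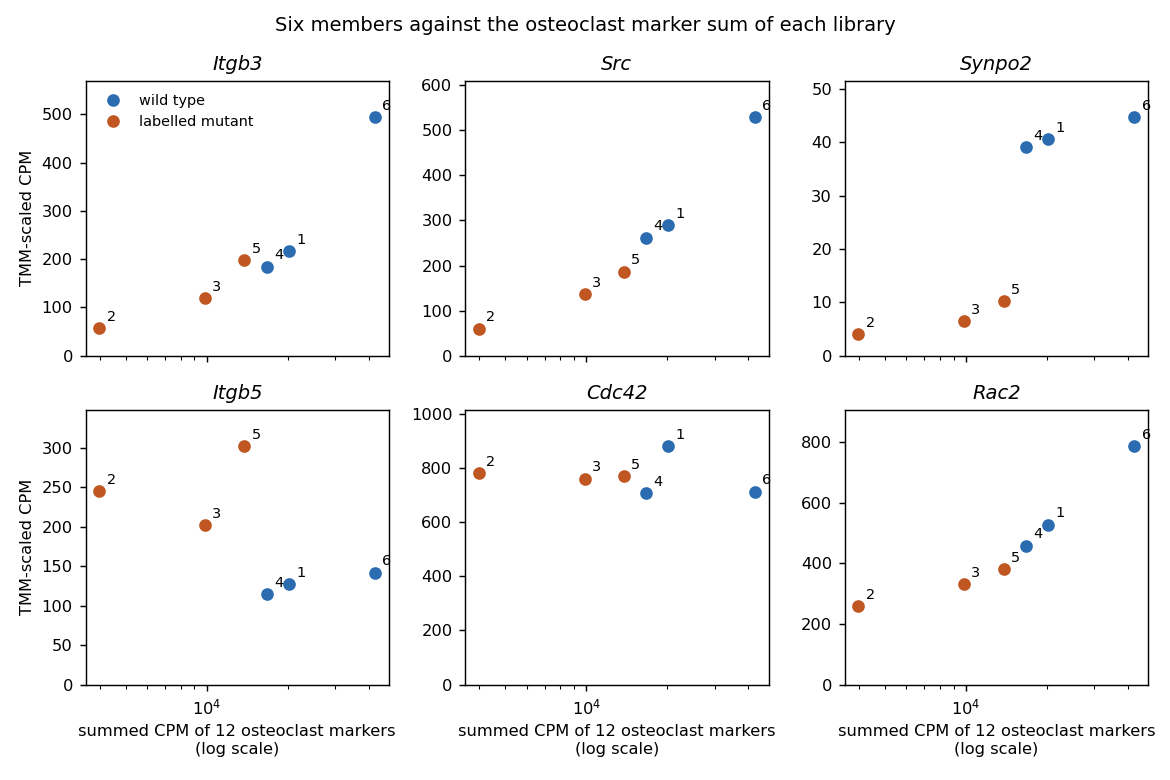
TMM-scaled CPM of 6 members (vertical axes from 0) against the summed CPM of 12 osteoclast markers (log axis), a numbered point per library, blue for wild type and orange for labelled mutant. *Src*, *Rac2* and *Synpo2* rank the 6 libraries as the sum does, and the genotypes do not overlap for these 3 or for *Itgb5*.

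Markers of other cells also varied. The summed CPM of 10 stromal and osteoblast markers was 1152, 1246 and 3042 in the wild-type and 1036, 2702 and 4248 in the labelled mutant libraries, so libraries 3, 5 and 6 stood above libraries 1, 2 and 4. Of the 9 tested, 7 had a fold change above 0 and 0 passed in edgeR, in DESeq2 or at an unadjusted p under 0.05. The sum ranked the wild-type libraries 1, 4, 6 and the labelled mutant libraries 2, 3, 5, from low to high, and was highest in library 5. Of the 45 genes, 1 (*Cttn*) followed both orders, or 2.22% against 6.25% of all genes. *Actn1*, *Vcl* and *Itga5*, which adherent stromal cells also express, followed the osteoclast orders within each genotype. The osteoclast and stromal orders differed only in libraries 1 and 4, where the stromal sum was 1152 and 1246 and *Actn1* stood at 280.3 and 278 CPM. Over all 6 libraries, these genes stood higher in libraries 3, 5 and 6 than in libraries 1, 2 and 4, as the stromal sum did. The osteoclast sum was instead lower in libraries 3 and 5 (9841 and 13790 CPM) than in libraries 1 and 4 (20180 and 16690 CPM). The source of these transcripts was not tested. The sum of 10 neutrophil markers was 365, 314 and 945 against 608, 653 and 1491 CPM, and that of 10 dendritic cell markers 1094, 707 and 1741 against 1709, 1431 and 5241, with library 5 highest in both. With the split as a term, 5 of 9 neutrophil and 4 of 7 dendritic cell markers tested rose, against 3.08% of all genes. DESeq2 called 1 of each list higher, against 2.11% of the 23196 genes it tested, and 0 passed with genotype alone in edgeR. Fold changes were above 0 for all 9 neutrophil and 5 of the 7 dendritic cell markers. The 2 dendritic cell markers below 0 had every labelled mutant library below wild type. Of 15 macrophage markers 13 had a log2 fold change above 0, and 7 rose with the split, 10 in DESeq2 and 1 with genotype alone in edgeR. Of the genes tested in each of these fits, 3.08%, 2.11% and 0.0499% rose. The 7 megakaryocyte and platelet markers summed to 50.7, 28.8 and 72.2 against 90.4, 99.1 and 286 CPM, and 1 of 6 tested rose with the split. The 9 lymphocyte markers in the table summed to 159, 72.4 and 37.5 against 173, 160 and 131 CPM. Most of that was *Cd4*, which myeloid cells also express, at 153, 70.2 and 33.8 against 169.8, 154 and 122 CPM. *Cd3e* and *Cd3g*, which define T cells, had at most 1 count in any library. Each of the 9 had counts in some library, so *Cd3e* and *Cd3g* do not stand for the whole list. Of the 3 lymphocyte markers tested, all 3 had a fold change above 0 and 0 passed in edgeR, in DESeq2 or at an unadjusted p under 0.05. Mast cell and erythroid markers (7 in the table) summed to 14.8, 52.6 and 3.45 against 56.02, 34.5 and 4.09 CPM. The part of these cells in the results was not tested.

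**Figure D5:**
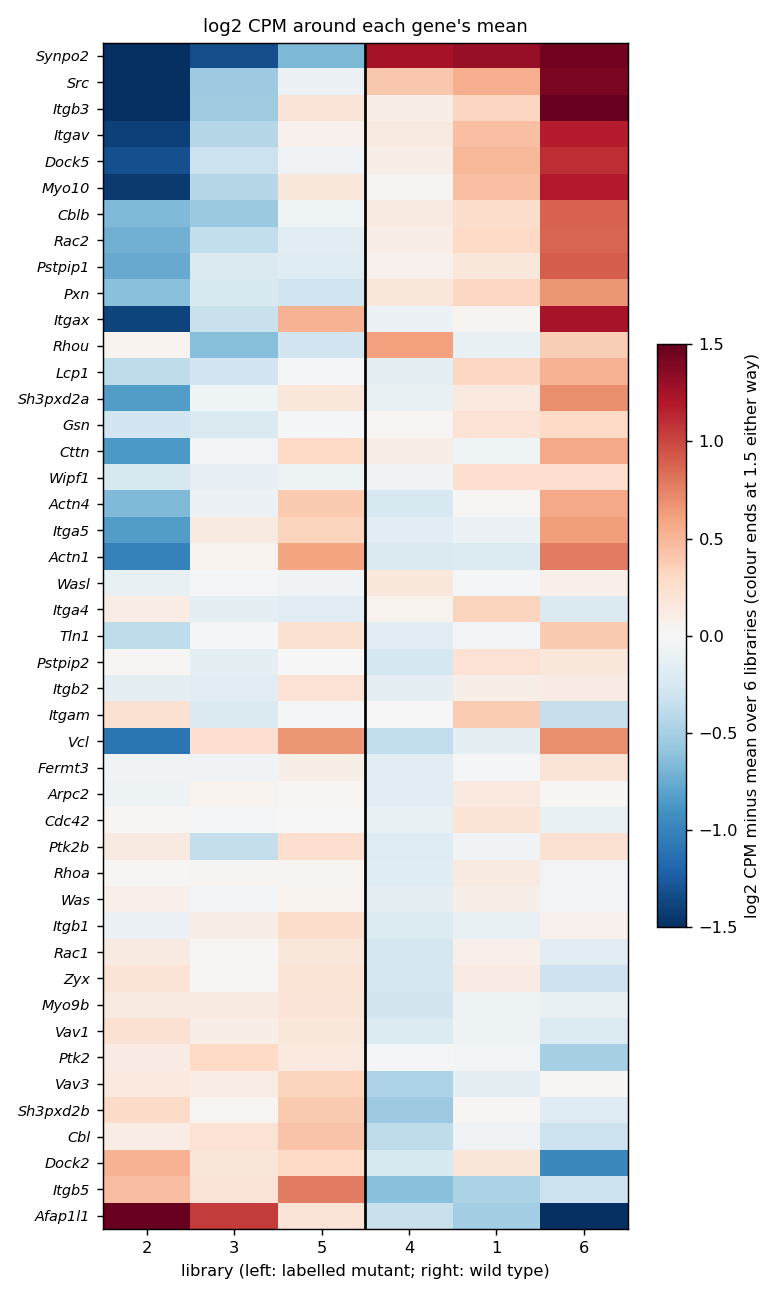
Log2 CPM of the 45 genes minus that gene's mean, with genes ordered by fold change and libraries by osteoclast marker sum within the labelled mutant (left) and wild-type (right) groups. The upper genes, from *Synpo2* to *Pxn*, are blue (below the mean) in library 2 and red (above it) in library 6. *Itgb5* and *Afap1l1*, at the bottom, are above the mean in all 3 labelled mutant libraries.

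Genes of the same pathway outside the 45 were called in both directions. With genotype alone, 0 passed in edgeR in each of 3 lists, of 15, 32 and 53 genes tested in the order given here. At an unadjusted p under 0.05 in edgeR, 2, 6 and 3 were higher and 2, 3 and 4 lower, against 7.19% and 12.4% of all genes. In DESeq2 1, 6 and 2 were higher and 1, 3 and 2 lower, against 2.11% and 2.36% of the 23196 genes it tested. With the split as a term, of 15 other integrin subunits tested 2 fell and 1 rose, or 13.3% and 6.67%, against 5.60% and 3.08% of all genes. *Itga2*, the α subunit of a collagen receptor, stood at 82.5, 60.9 and 131 against 8.89, 17.6 and 29.6 CPM, -2.29 on the log2 scale (SE 0.483; adjusted p = 0.0924, and 0.0135 with the split, edgeR). The labelled mutant libraries were all far below wild type. *Itga9*, an α subunit that pairs with β1, rose, at 8.17, 6.58 and 11.4 against 29.6, 26.9 and 35.1 CPM (1.81, SE 0.236; 0.0544 and 0.0109), and *Itgb7*, a leukocyte β subunit, fell (-1.17, SE 0.470; 0.241 and 0.0136, edgeR) with overlapping groups. Of 32 integrin adaptors and kinases, 2 fell and 5 rose with the split, or 6.25% and 15.6%. The 2 were the β-parvin gene *Parvb* (-0.79, SE 0.209) and the PINCH1 gene *Lims1* (-0.602, SE 0.153), which act with integrin-linked kinase. The 3 rises with the smallest p were the docking protein gene *Nedd9* (1.01, SE 0.191), the γ-parvin gene *Parvg* (1.26, SE 0.350) and the actin-elongating *Evl* (0.92, SE 0.179).

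Of 53 genes of actin nucleation, bundling and depolymerisation, 3 fell and 2 rose with the split (edgeR), or 5.66% and 3.77%, near the 5.60% and 3.08% of all genes. *Abi1*, a subunit of the WAVE complex (-0.68, SE 0.116), the capping gene *Capg* (-0.59, SE 0.157) and the cofilin phosphatase gene *Ssh1* (-0.52, SE 0.153) fell. The supervillin gene *Svil* (0.61, SE 0.117) and the coronin gene *Coro1a* (0.68, SE 0.189) rose. The medians of the 3 lists were 0.33, 0.14 and 0.04 on the log2 scale in the order given.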

How the data were processed

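Counts per Ensembl gene, whole numbers and not normalized, were deposited for 6 libraries by the authors. Reads were single and 75 bases long, from stranded mRNA libraries, per the labels' protocols. The aligner TopHat2 2.0.13, with Bowtie2 2.2.3, SAMtools 0.1.19 and the build mm10, is named per the submitters' processing notes. Which program made the counts, with which strand setting and annotation, is not given in the sources used here. The table had 23264 rows, and 60 exact repeats were left out. Columns were assigned to genotypes by their names, which carry no replicate number or sex. Pairs of libraries of 1 genotype differed by a chi-square of 27.7 or more per degree of freedom, so none was treated as a repeat.

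Counts were tested in edgeR 4.0.16 (R 4.3.3; TMM, filterByExpr, quasi-likelihood test), on genotype alone, with p-values adjusted over 14040 genes (Benjamini-Hochberg) and a threshold of 0.05. SE is the absolute log2 fold change divided by the root of F. The test was tried on simulated data. Biological variation (edgeR's common estimate) was 40.9%, falling to 23.5% in the fit with the column-name split. Exon lengths are unions of GENCODE M21 exons, and 99.8% of identifiers matched. The alternatives were the split as a term, DESeq2 1.42.0 (without independent filtering), DESeq2 size factors, no low-count filter and leaving out libraries; fits on libraries 1 to 4, and with the split and 1 library left out, were added after seeing the data. The members and lists were chosen with earlier results of these data known. Values in every library are given for members past the threshold in either fit and for 20 genes named in the rule; of each further list, up to 3 genes per direction with the smallest p are named. Others named with values in every library, among them *Ptk2*, *Cbl* and *Vcl*, were chosen after their values were seen. A further list and 1 marker gene are not reported here.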

Additional observations from a re-analysis of the deposited data

How the results depend on the processing

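Over all genes tested, edgeR with genotype alone called 7 higher and 3 lower. The counts were 433 and 786 with the column-name split as a term, and 1 and 0 within libraries 1 to 4. Without the low-count filter they were 46 and 35 of 23204 genes. In DESeq2, also without that filter, they were 490 and 548 of 23196 genes. Leaving out a library, they ranged from 0 to 2 and 0 to 1 with genotype alone and from 74 to 697 and 96 to 1148 with the split. Of the 45 members, 0 were called with genotype alone. With the split 2 were called higher and 7 lower, in DESeq2 4 and 4, and without the filter 0 and 1 (*Synpo2*). With 1 library left out, counts of members lay between 0 and 2 higher and between 0 and 11 lower, the highest without library 3 in the fit with the split. The median of the members ranged from -0.191 without library 4 to 0.031 without library 2 and was 0.013 without library 6 (genotype alone), so its sign rested on libraries 2 and 6. The sign was kept in every setting by 32 of the 45 genes. It changed in some setting for the 13 others, all with adjusted p above 0.05 in edgeR in both main fits. Their log2 fold changes with 1 library left out ranged from -0.190 to 0.042 for *Itgb2*, -0.188 to 0.163 for *Itgam*, -0.240 to 0.025 for *Itga4*, -0.533 to 0.102 for *Itga5*, -0.101 to 0.188 for *Ptk2b*, -0.481 to 0.395 for *Vcl*, -0.278 to 0.086 for *Tln1*, -0.074 to 0.103 for *Fermt3*, -0.047 to 0.095 for *Arpc2*, -0.029 to 0.118 for *Cdc42*, -0.191 to 0.045 for *Pstpip2*, -0.591 to 0.254 for *Actn1* and -0.510 to 0.063 for *Actn4*. *Vcl* was 0.010 and *Fermt3* 0.013 with DESeq2 size factors, and 0.009 and 0.010 in DESeq2. *Arpc2* was -0.001 without the filter. Within libraries 1 to 4, *Fermt3* was 0.038, *Arpc2* -0.002 and *Cdc42* -0.042. The cause of these changes was not tested. No paired analysis was possible because the columns carry no replicate number of the labels. Precision was limited by 3 libraries per genotype.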
